A study of Mus musculus with 162 samples.

Results

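Brainstem RNA late in a short fast, at 18 h and 22 h without food, was set against brainstem RNA of mice fed or only briefly deprived, at 0 h and 2 h. The comparison holds 12 libraries, 6 late and 6 fed, chosen by organ label and fasting time alone from the 162 libraries of the series. The series covers 9 organs of the same 18 mice, 3 killed before fasting at 0 h and 3 after each of 2, 8, 12, 18 or 22 h without food, and each organ of each mouse gave 1 library. All were C57BL/6J males 8 to 9 weeks old on chow, untreated apart from food withdrawal, and all were killed shortly after the lights went off. The brainstem samples (BST) were dissected as mesencephalon, pons and myelencephalon together, so each is a mixture of neurons, glia and vessels. RNA was measured by strand-specific mRNA sequencing as read counts per gene.

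The late libraries were shallower than the fed ones. Fed totals ran from 9604280 to 11322936 counted reads and late totals from 6998492 to 8537933, with no overlap. The 8 h and 12 h libraries, between them in time, had 10054917 to 11776354. A gene with 3 counts, taken here as the floor of detection, stands at 0.265 to 0.312 CPM (counts scaled to a common library size) in the fed libraries and at 0.351 to 0.429 in the late ones. All BST libraries were run in lane 4, and their order on the sample sheet follows fasting time, so handling order and fasting time cannot be told apart. What part depth had in the results was not tested.

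The label fits the markers. Hoxb3, a patterning gene that stays on in the hindbrain, had a median of 24.2 CPM over the 18 BST libraries and 0.14 in cerebellum. Slc6a5, the glycine transporter of inhibitory neurons in brainstem and spinal cord, had a median of 497 CPM in BST and 0.0617 in olfactory bulb. Emx1, a patterning gene of the forebrain, had a median of 0.133 CPM in BST and 6.08 in olfactory bulb. On the first principal component of the 12 libraries, which carried 21.96% of the variance, 0 h replicate 1 stood at -14.1, on the side of late libraries at -12.2 to -8.30 and beyond them. The late library 18 h replicate 2 stood at 12.2, among the fed ones. Those libraries therefore lie on the side of the opposite group, and the main counts are given with and without them.

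The brainstem holds the first relay for signals from the gut, in the nucleus of the solitary tract, and the serotonin and noradrenaline cell groups that set arousal and appetite. Fasting raises circulating glucocorticoids, fatty acids and ketone bodies and lowers leptin and insulin, and the brain makes its own cholesterol because the lipoproteins of blood do not cross into it. Much of the RNA of this tissue comes from oligodendrocytes, whose myelin wraps the long tracts that run through it.

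Differences between late and fed brainstem were small, and no single gene passed the main test. Transcripts for the RNA-binding proteins Hnrnph3 and Hnrnpa2b1 were slightly lower in every late library than in any fed library. Those for the anion exchanger Slc4a2, the chondroitin sulfate enzyme Chpf2 and the membrane protein Tspan2 were slightly higher. With edgeR, 0 of 16229 genes tested reached an adjusted p under 0.05 (0%), and the smallest adjusted p was 0.0535, shared by 13 genes. At an unadjusted p under 0.05 there were 836 genes higher (5.15%) and 918 lower (5.66%), 1754 in all or 10.8%. DESeq2 called 18 genes higher (0.141% of the 12768 to which it gave an adjusted p) and 31 lower (0.243%). In 48 genes all 6 late libraries lay above all 6 fed ones (0.296%) and in 45 genes they lay below (0.277%). The median log2 difference over all genes was 0.000918, 483 genes exceeded 0.5 in size and 49 exceeded 1. The count of 0 rests on single libraries: without 0 h replicate 1, edgeR called 48 genes higher and 73 lower, without 22 h replicate 2 it called 3 and 14, and without 0 h replicate 2 or without 18 h replicate 2 it called 0 and 1. Against the 2 h libraries alone it called 32 and 48, and against the 0 h libraries alone 0 and 0.

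Among the 5 genes with the smallest p in the lower direction, Hnrnph3 encodes a nuclear RNA-binding protein of the hnRNP family. Its level ran from 53.7 through a median of 56.3 to 60.4 normalized CPM in the fed libraries and from 43.2 through 46.2 to 48.2 in the late ones. The groups did not overlap. Hnrnph3 was lower by a log2 difference of -0.30 (SE 0.06, adjusted p 0.0535 with edgeR, 0.00196 with DESeq2), in 6 of 6 late libraries. Hnrnpa2b1, another hnRNP protein, which binds RNA for splicing and for transport in neurites and oligodendrocyte processes, ran from 394 through 418 to 445 in fed and from 344 through 354 to 381 in late libraries. Again no late library reached the lowest fed one, and the difference of Hnrnpa2b1 was -0.23 (SE 0.04, adjusted p 0.0535). Tmem267, a membrane protein of unknown role, ran from 15.1 through 18.5 to 25.4 in fed and from 10.8 through 12.1 to 15.0 in late libraries. Its groups were apart by a narrow gap, and the log2 difference of Tmem267 was the largest of the 5 at -0.60 (SE 0.11, adjusted p 0.0535).

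Tpt1 encodes an abundant growth-linked protein with many pseudogene copies, so its count of uniquely mapped reads is uncertain. It ran from 25.8 through 27.5 to 31.9 in the fed and from 19.5 through 21.1 to 23.4 in the late libraries. No values overlapped, and the log2 difference of Tpt1 was -0.40 (SE 0.07, adjusted p 0.0535). Gm4617, annotated as a processed pseudogene on chromosome 3, whose reads may come from its parent gene, ran from 54.9 through 59.7 to 68.2 in fed and from 45.6 through 48.1 to 53.3 in late libraries. It too was lower in 6 of 6 late libraries, by -0.31 (SE 0.06, adjusted p 0.0535).

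Of the 5 leading genes in the other direction, 3 had overlapping groups. Slc4a2 encodes a chloride-bicarbonate exchanger that helps set cell pH and is also strong in choroid plexus. It ran from 98.3 through 104.4 to 129.8 in fed and from 122.4 through 130.2 to 141.8 in late libraries. The overlap came from 0 h replicate 1, at 129.8 against 109.6 for the next fed library. Slc4a2 was higher by 0.28 (SE 0.06, adjusted p 0.0535). Chpf2, which takes part in building chondroitin sulfate chains, ran from 45.0 through 47.8 to 58.9 and from 53.9 through 60.9 to 65.5. The same fed library, at 58.9, lay within the late range, and the difference of Chpf2 was 0.30 (SE 0.06, adjusted p 0.0575). Tspan2, a tetraspanin of oligodendrocytes, ran from 353 through 395 to 427 and from 420 through 457 to 498. Its groups touched at their edges, with a difference of 0.24 (SE 0.05, adjusted p 0.0698) for Tspan2.

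In 2 others the groups were apart. Dclre1b encodes the Apollo nuclease, which trims telomere ends, and ran from 6.80 through 10.6 to 11.5 in fed and from 12.3 through 14.4 to 17.8 in late libraries. Every late library was above every fed one, and Dclre1b was higher by 0.57 (SE 0.12, adjusted p 0.0575). Map1s encodes a microtubule-associated protein linked to autophagy and mitochondria. It ran from 26.4 through 27.2 to 28.3 and from 30.3 through 33.5 to 34.5. The fed values of Map1s were tight and clear of the late ones, with a difference of 0.28 (SE 0.06, adjusted p 0.0698).

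**Figure D1:**
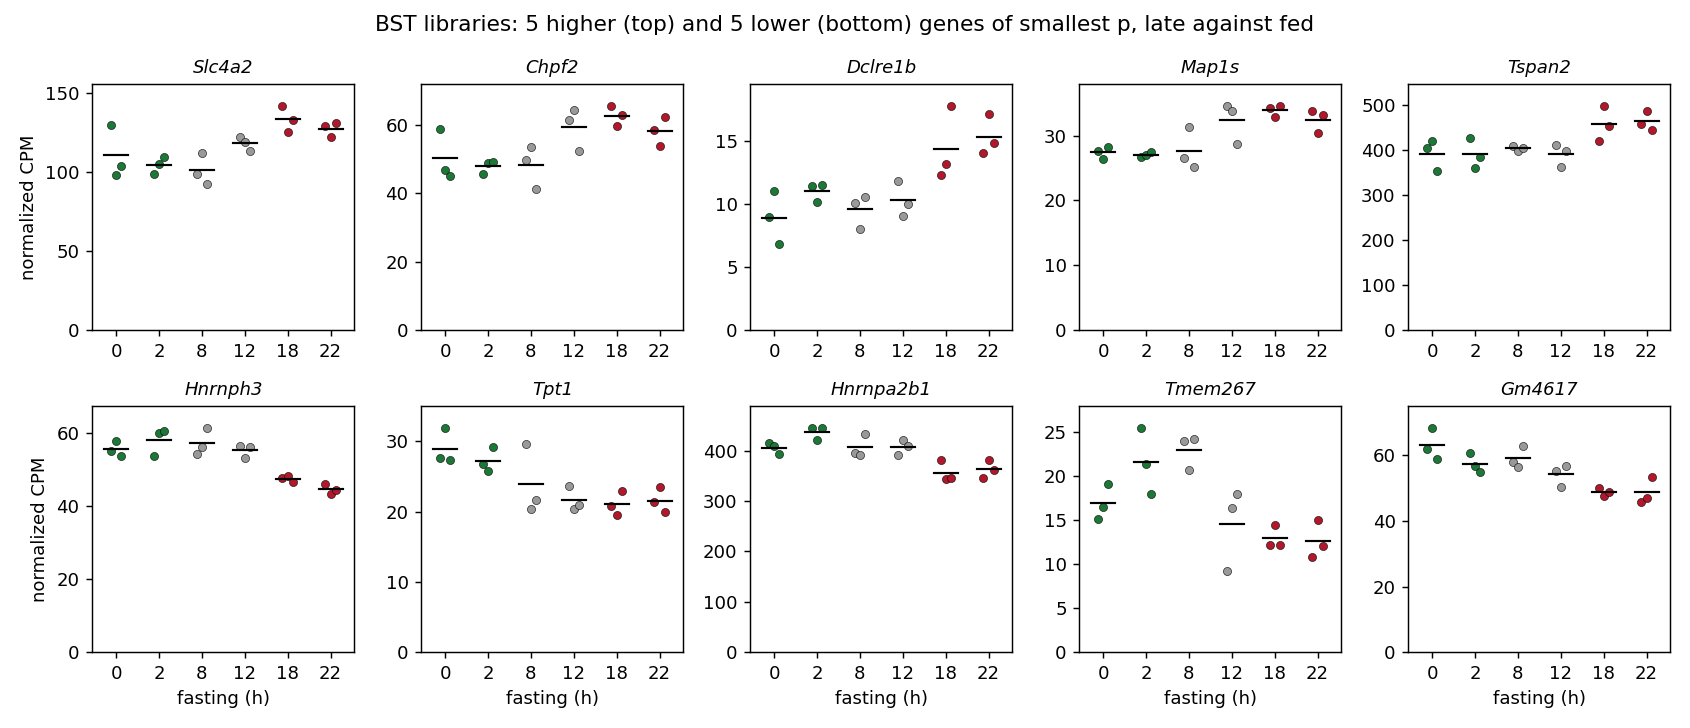
Level of the 5 higher and the 5 lower genes with the smallest p in their direction, in each BST library, against hours of fasting. The axis is normalized CPM, linear from 0, with a bar at the mean of the 3 libraries of each time (fed green, 8 h and 12 h grey, late red). Some lower genes not shown had a smaller p than the higher ones shown. Hnrnph3 sits between 43.2 and 48.2 in the 6 late libraries and between 53.7 and 60.4 in the 6 fed ones.

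The 8 h and 12 h libraries, which the comparison did not use, show when the levels separated. Hnrnph3 averaged 55.5, 58.01, 57.1 and 55.1 normalized CPM at 0, 2, 8 and 12 h, then 47.4 and 44.5 at 18 and 22 h. Hnrnpa2b1 likewise averaged 407 at both 8 h and 12 h, within its fed range, before 357 and 363 late. Tspan2 averaged 404 and 391 at 8 h and 12 h, near fed, and 458 and 464 at 18 h and 22 h. Map1s, by contrast, averaged 27.7 at 8 h and 32.3 at 12 h, close to its late means of 33.9 and 32.4. Chpf2 averaged 48.2 at 8 h and 59.5 at 12 h, beside late means of 62.7 and 58.2. Tpt1 stepped through 23.9 at 8 h and 21.7 at 12 h to 21.1 and 21.6. No test was run on these intermediate times.

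Beyond those 10, DESeq2's calls included genes of neurons, glia and metabolism, named here after their values were seen and none past the edgeR threshold. S1pr1, a receptor for sphingosine 1-phosphate found on astrocytes and endothelium, ran from 155.2 through 166.5 to 173.9 in fed and from 137.9 through 141.4 to 151.9 in late libraries. Its groups were apart, with a difference of -0.22 (SE 0.04). Ctss, the lysosomal protease cathepsin S of microglia, was lower by -0.37 (SE 0.07) with overlap between groups. Vamp2, the SNARE protein of synaptic vesicles, differed by -0.18 (SE 0.04) and Scg2, a protein of dense-core vesicles, by -0.14 (SE 0.04), both with groups apart. Hs3st4, a heparan sulfate sulfotransferase of neurons, differed by -0.41 (SE 0.08), and Magoh, a core part of the exon junction complex, by -0.38 (SE 0.08). On the higher side stood Acox3, a peroxisomal oxidase of branched fatty acids, at 0.25 (SE 0.06), with every late library above every fed one. Vps11, needed for fusion with lysosomes, was at 0.18 (SE 0.04) and also apart. Ulk3, a kinase related to the autophagy starter Ulk1, was at 0.36 (SE 0.09), and Slc16a9, a monocarboxylate and carnitine carrier, at 0.61 (SE 0.15).

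Most genes of cholesterol synthesis had small positive differences. For scale with this and later lists, 5.15% of all genes tested were higher and 5.66% lower at an unadjusted p under 0.05. Of 24 listed and tested, 21 had a positive difference, 11 were higher and 0 lower at an unadjusted p under 0.05, and the median log2 difference was 0.11. None passed in edgeR, and DESeq2 called 1, Stard4, which carries cholesterol between membranes. Stard4 ran from 67.5 through 72.4 to 82.2 normalized CPM in fed and from 83.03 through 84.8 to 89.8 in late libraries. Its groups did not overlap, with a difference of 0.22 (SE 0.05, adjusted p 0.106 with edgeR and 0.021 with DESeq2). Lss, which closes the sterol rings, ran from 53.0 through 56.4 to 59.4 and from 59.96 through 63.1 to 67.2, a difference of 0.17 (SE 0.05). Stard4 and Lss were among the 3 members whose groups were apart.

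The other members at that level had like differences, and the groups of Mvk and Insig1 overlapped. Mvk, mevalonate kinase, had the largest difference at 0.27 (SE 0.07), from a fed median of 26.1 to a late median of 32.4. Hmgcs1, an early synthase of the pathway, differed by 0.11 (SE 0.05). Insig1, which holds the sterol sensor in the endoplasmic reticulum, differed by 0.19 (SE 0.05), and the later enzyme Nsdhl by 0.18 (SE 0.07). Summed over the list, fed libraries held 2430, 2145, 2278, 2148, 2110 and 2211 normalized CPM and late ones 2420, 2381, 2350, 2339, 2418 and 2386. The highest fed sum was that of 0 h replicate 1, above all late libraries. Without it the list median was 0.16, with 14 members higher and 1 lower at an unadjusted p under 0.05 and 4 called higher. With the 0 h libraries alone as fed, 3 members were higher and 1 lower at that level, and the list median was 0.08. Against the 2 h libraries alone 15 were higher, 3 of them called, and the list median was 0.18.

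Since most of these genes leaned the same way, their promoters are shown from RefSeq (GRCm38.p6), 300 bases around the start of each gene, for a kinase, a regulator and the first synthase of the pathway. Of the 24 genes, 17 matched an entry. The motif TCACNCCAC, a form of the sterol regulatory element, was searched on both strands and occurs in 1 of their 20 promoters and in 1.24% of all 32851 promoters. The motif CCAAT, read as ATTGG on the other strand and bound by NF-Y, occurs in 16 of those 20 and in 37.4% of all promoters. Capitals mark both motifs, which share no base here. Mvk lies at chr5:114444019-114444318 with 5 CCAAT motifs, Insig1 at chr5:28071162-28071461 with 1, and Hmgcs1 at chr13:119690101-119690400 with 4 and the sterol motif, all on the + strand. A match is a description of letters and not of binding.
Mvk: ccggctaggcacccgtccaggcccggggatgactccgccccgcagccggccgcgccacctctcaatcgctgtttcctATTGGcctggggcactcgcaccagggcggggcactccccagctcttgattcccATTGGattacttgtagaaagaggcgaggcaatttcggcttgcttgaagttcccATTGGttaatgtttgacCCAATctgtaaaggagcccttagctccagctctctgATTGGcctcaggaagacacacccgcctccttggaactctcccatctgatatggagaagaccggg
Insig1: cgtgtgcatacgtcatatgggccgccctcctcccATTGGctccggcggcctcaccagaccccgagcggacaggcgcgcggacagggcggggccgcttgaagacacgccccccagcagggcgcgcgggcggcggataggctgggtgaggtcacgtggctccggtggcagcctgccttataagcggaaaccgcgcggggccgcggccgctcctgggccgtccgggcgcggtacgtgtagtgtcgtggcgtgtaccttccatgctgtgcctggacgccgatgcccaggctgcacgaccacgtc
Hmgcs1: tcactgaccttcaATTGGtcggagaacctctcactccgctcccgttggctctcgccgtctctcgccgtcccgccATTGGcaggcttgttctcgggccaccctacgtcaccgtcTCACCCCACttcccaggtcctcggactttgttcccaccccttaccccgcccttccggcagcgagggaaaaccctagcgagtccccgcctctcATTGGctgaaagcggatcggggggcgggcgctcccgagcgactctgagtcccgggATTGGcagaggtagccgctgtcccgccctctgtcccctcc

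Genes of fuel use differed little between the groups. In the list of fasting metabolism and ketone use, 28 members were tested, 4 were higher and 3 lower at an unadjusted p under 0.05, the median was 0.06, and 0 passed in edgeR. The 4 became 7 without 2 h replicate 2 or without 18 h replicate 2, 10 against the 0 h libraries alone and 2 with the cerebellar covariate, and against the 2 h libraries alone the median was 0.00127. Txnip, which restrains glucose uptake and responds to glucose and to glucocorticoids, was the 1 member DESeq2 called. It ran from 22.5 through 28.3 to 34.8 in fed and from 33.01 through 36.5 to 45.1 in late libraries. The Txnip groups overlapped slightly, with a difference of 0.40 (SE 0.09, adjusted p 0.128 with edgeR). Cpt1a, which lets long fatty acids into mitochondria, differed by 0.19 (SE 0.06), and its brain relative Cpt1c by 0.17 (SE 0.05) with groups apart. Angptl4, an inhibitor of lipoprotein lipase raised by fasting in liver and fat, differed by 0.66 (SE 0.22) at a low level. Lower members were Ppara at -0.66 (SE 0.26), Plin2, a coat protein of lipid droplets, at -0.21 (SE 0.09), and the insulin-like growth factor receptor Igf1r at -0.18 (SE 0.07). Fatty acid synthesis, with 15 members tested, had 3 higher, 0 lower and a median of 0.07, which was 0.10 without 0 h replicate 1, 0.03 without 2 h replicate 2, 0.04 without 2 h replicate 3 or 0 h replicate 2, and 0.02 with the cerebellar covariate. The 3 were Acacb, at 0.36 (SE 0.11), Acly, which makes cytosolic acetyl-CoA, at 0.15 (SE 0.06), and Fasn at 0.14 (SE 0.05). These 3 became 5 without 0 h replicate 1 or without 0 h replicate 3. With the cerebellar covariate 1 member was higher and 2 were lower.

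Targets of glucocorticoids leaned upward. Of 25 tested, 22 had a positive difference, 3 were higher and 0 lower at an unadjusted p under 0.05, with a median of 0.13 and 0 called by edgeR or DESeq2. Sgk1, a kinase induced by the glucocorticoid receptor, ran from 41.5 through 195.4 to 315.3 normalized CPM in fed and from 144.3 through 349.5 to 430.4 in late libraries. Its ranges overlap widely, and the difference of 0.76 (SE 0.41) was less than 2 SE. Nfkbia, the inhibitor of NF-kappaB, differed by 0.56 (SE 0.21) and Ddit4, which restrains mTORC1, by 0.50 (SE 0.21), and Angptl4 is on this list too. The fed times were unlike each other here. Sgk1 averaged 137.3 at 0 h and 252.1 at 2 h, and against the 0 h libraries alone the list median was 0.46 with 13 members higher at an unadjusted p under 0.05, while against the 2 h libraries alone it was 0.01 with 0 higher and 1 lower. Those comparisons share the late libraries. Without 0 h replicate 3 the median was 0.05, and without 2 h replicate 2, 2 h replicate 3 or 18 h replicate 1 it was 0.25, 0.30 or 0.26, the last with 9 higher. The 3 higher members became 2 without 0 h replicate 1 or without 2 h replicate 1, 1 without 18 h replicate 3, 22 h replicate 2 or 22 h replicate 3, 1 with the choroid covariate and 0 with the cerebellar covariate. Immediate early genes, which follow neuronal firing within minutes, had 0 higher and 3 lower of 22 tested and a median of -0.11: Arc at -0.26 (SE 0.09), Atf3 at -0.96 (SE 0.34) and Ier5 at -0.23 (SE 0.09). That median was -0.06 without 18 h replicate 1, -0.07 without 2 h replicate 2, -0.18 without 0 h replicate 1 and -0.21 without 22 h replicate 3. It was -0.02 for the 22 h libraries alone and -0.04 with the cerebellar covariate. Against the 0 h libraries alone it was -0.04, and against the 2 h libraries alone -0.18. Jund had 0 uniquely mapped reads counted in all 12 libraries, and whether the gene was silent was not tested. Of 20 clock genes tested, only Clock itself was lower at that level, by -0.14 (SE 0.06), and 0 were higher.

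Peptides and receptors of feeding had differences of both signs. Of 29 tested, 10 were positive and 19 negative, 1 was higher and 2 lower at an unadjusted p under 0.05, and the median was -0.05. The feeding median was -0.02 without 0 h replicate 1, where edgeR called 1 member lower, -0.02 without 18 h replicate 1, -0.03 without 2 h replicate 2 and -0.10 without 18 h replicate 2. Lepr, the leptin receptor, ran from 1.89 through 3.53 to 5.96 in fed and from 3.38 through 5.80 to 8.00 in late libraries. Its ranges overlap, with a difference of 0.64 (SE 0.25). Bdnf, a growth factor that curbs appetite in the hindbrain, differed by -0.35 (SE 0.12), and Cckar, the cholecystokinin receptor of vagal circuits, by -0.56 (SE 0.25). Agrp, Prlh, Ucn, Mc3r and Gfral were too low to test.

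Of 11 monoamine genes tested, 1 was higher and 4 lower at an unadjusted p under 0.05, with a median of -0.14 and none called by either tool. Tph2, which makes serotonin in the brain, ran from 34.2 through 65.7 to 96.9 in fed and from 30.7 through 36.9 to 56.7 in late libraries. The groups overlap, since some fed libraries are as low as the late ones, and the difference was -0.71 (SE 0.25). Slc6a4, the serotonin transporter, differed by -0.77 (SE 0.28), Fev, the factor that keeps serotonin identity, by -0.79 (SE 0.29), and Ddc, the decarboxylase shared with dopamine and noradrenaline cells, by -0.33 (SE 0.11). At 8 h and 12 h Tph2 averaged 38.6 and 42.7, near its late means of 34.97 and 43.5. With 0 h replicate 2 and 2 h replicate 1 left out, the libraries highest in cerebellar genes, 1 monoamine gene was higher and 1 lower at that level. Without 2 h replicate 2 the list median was -0.09, and without 0 h replicate 1 edgeR called 1 member lower. Dbh, which makes noradrenaline, went the other way at 0.43 (SE 0.16), from a fed median of 19.2 to a late median of 24.2. In bulk tissue, fewer cells of a type and less RNA per cell cannot be told apart, nor can either be told from where a dissection was placed. Of 7 cholinergic and motor neuron genes tested, 7 had a positive difference, with 1, Ache, at an unadjusted p under 0.05, at 0.21 (SE 0.07), and a list median of 0.12. That median was 0.04 without 0 h replicate 2, 0.01 without it and 2 h replicate 1, and -0.00319 with the cerebellar covariate given below. It was 0.21 without 0 h replicate 3 and 0.19 without 2 h replicate 3 or without 22 h replicate 1. Glycine and GABA genes had 0 of 8 at that level, and Slc6a5 differed by 0.21 (SE 0.15).

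Microglial and mural markers had mostly negative differences, none past the edgeR threshold. All 14 microglial genes tested had a negative difference, 6 of them at an unadjusted p under 0.05, with a median of -0.16 and 0 called. P2ry12, the purine receptor of resting microglia, ran from 22.7 through 25.4 to 31.97 in fed and from 11.6 through 18.9 to 27.2 in late libraries. It overlaps, with a difference of -0.44 (SE 0.15). Tyrobp, an adaptor of microglial receptors, differed by -0.36 (SE 0.10), Itgam by -0.37 (SE 0.13) and the complement gene C1qb by -0.23 (SE 0.07). Summed over the list, of which none is at 0, fed libraries held 396, 446, 437, 397, 417 and 403 normalized CPM and late ones 380, 416, 395, 356, 337 and 319. They were 419.8, 332.4 and 434.8 at 8 h and 334.7, 315.6 and 368.9 at 12 h. Against the fed libraries, the list median was -0.27 for the 22 h libraries alone and -0.06 for the 18 h libraries alone. Ctss, given above, is a microglial gene outside that list.

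Of 8 mural genes, which mark pericytes and the muscle of small vessels, 7 had a negative difference, 4 at an unadjusted p under 0.05, with a median of -0.20 and 0 called by edgeR. DESeq2 called 1, Rgs5 of pericytes, which ran from 114.5 through 127.3 to 131.2 in fed and from 85.9 through 100.1 to 120.5 in late libraries. The groups overlap by a little, with a difference of -0.31 (SE 0.07, adjusted p 0.144 with edgeR). The smooth muscle genes Tagln, Myh11 and Acta2 differed by -0.44 (SE 0.17), -0.40 (SE 0.13) and -0.29 (SE 0.13). Mural sums, with Rgs5 the most abundant and none at 0, were 211.05, 197.4, 215.8, 208.7, 216.7 and 207.5 in fed and 201.7, 161.02, 172.7, 184.02, 185.4 and 147.2 in late libraries. They were as low at 8 h, at 167.4, 156.3 and 166.6. Without 22 h replicate 3 the mural median was -0.13, with 3 members lower at that level. Endothelial genes had 0 higher and 1 lower of 12, Flt1 at -0.21 (SE 0.08), and a median of -0.12, which was -0.08 without 2 h replicate 2. The 1 became 3 without 0 h replicate 2, without 2 h replicate 1 or with the cerebellar covariate. It became 0 without 2 h replicate 2 or without 22 h replicate 3. Cldn5, the tight junction protein, differed by -0.34 (SE 0.16).

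Differences in oligodendrocyte and astrocyte genes were small. Of 16 myelin genes, 4 were higher and 1 lower at an unadjusted p under 0.05, the median was 0.05 and 0 passed in edgeR. Without 2 h replicate 2 the myelin median was 0.03, and without 0 h replicate 1 edgeR called 2 members higher. Mal, a proteolipid of compact myelin and the 1 member DESeq2 called, ran from 804 through 842 to 876 in fed and from 821 through 960 to 1105 in late libraries. Its late libraries spread wider than the fed ones, and the difference was 0.20 (SE 0.05). Cldn11, the tight junction protein between myelin layers, differed by 0.18 (SE 0.05), Cnp by 0.18 (SE 0.06) and Mog by 0.15 (SE 0.05). Ugt8a, which makes galactosylceramide, was lower, at -0.20 (SE 0.05). Precursor genes had 0 higher, or 3 without 0 h replicate 1, and 1 lower of 12, the 1 being Gpr17 of cells about to myelinate, at -0.21 (SE 0.06). Of 12 astrocyte genes, 1 was higher and 2 lower, and 0 were either without 18 h replicate 3: Fgfr3 at 0.10 (SE 0.04), Aqp4, the water channel of endfeet, at -0.14 (SE 0.05), and Slc1a3 at -0.18 (SE 0.08).

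Markers of neighbouring tissue varied between libraries. All 17 cerebellar genes tested had a negative difference, 6 at an unadjusted p under 0.05, with a median of -1.11 and 0 called by edgeR. DESeq2 called 1, En2, a patterning gene of midbrain and cerebellum, at -1.62 (SE 0.48), and Pcp2 of Purkinje cells had the largest difference at -1.79 (SE 0.75). Their sums, with Slc17a7 the most abundant and none at 0, were 406, 1025, 422, 780, 453 and 358 in fed and 425, 381, 395, 376, 385 and 444 in late libraries. The excess thus lay in 0 h replicate 2 and 2 h replicate 1. With both left out, a choice made after seeing the data, the list median was -0.09 and edgeR called 2 genes higher and 8 lower in the whole comparison. With the cerebellar sum as a covariate, likewise chosen later, it called 2 and 8. The share that cerebellar tissue had in other differences was not tested beyond these fits.

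All 12 choroid plexus genes had a positive difference, 0 at an unadjusted p under 0.05, with a median of 0.86 and 0 called by either tool. The choroid median was 1.30 without 0 h replicate 1. Ttr, the transthyretin that choroid plexus secretes, was the most abundant, and its difference of 0.87 (SE 1.2) was smaller than its SE. Choroid sums were 3318, 211, 70.4, 2085, 2174 and 50.5 in fed and 3871, 44.5, 2599, 2029, 3497 and 2336 in late libraries, none of the genes being at 0. The tissue was thus plentiful in 3 of 6 fed and 5 of 6 late libraries. An added fit with the choroid sum as a term, also chosen after the values were seen, called 0 genes higher and 4 lower and gave the choroid list a median of 0.12. Meningeal genes had 2 higher and 0 lower of 10 and a median of 0.37: Islr at 0.52 (SE 0.19) and Lum, a proteoglycan of fibroblasts, at 0.48 (SE 0.17). Their sums, with Dcn the most abundant, were 168.1, 84.4, 124.4, 102.8, 114.98 and 80.3 in fed and 128.5, 122.8, 163.2, 161.4, 120.7 and 138.9 in late libraries. Without 0 h replicate 1 the meningeal list had 6 members higher at that level, 2 of them called, and a median of 0.54. Against the 0 h libraries alone it had 0 higher and a median of 0.20, and without the 2 libraries highest in cerebellar genes 1 higher and a median of 0.22. Against the 2 h libraries alone it had 7 higher, 1 of them called, and a median of 0.54. What part these tissues had in the leading genes was not otherwise tested.

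Ependymal genes had 0 of 7 tested at an unadjusted p under 0.05 and a median of 0.16, which was 0.09 without 2 h replicate 3 or without 22 h replicate 2, and Mia was at 0 in all 12 libraries. Red blood cell genes had 0 of 5 and a median of -0.29, which was -0.07 without 2 h replicate 1, -0.13 without 22 h replicate 2, 0.29 against the 0 h and -0.63 against the 2 h libraries alone, 0.07 for the 18 h and -0.79 for the 22 h libraries alone and 0.02 without both libraries highest in cerebellar genes. Forebrain genes had 0 of 8, and others, such as Emx1, Emx2 and Tbr1, were too low to test. Of 18 hindbrain Hox genes, 15 had a positive difference, with 1 at that level, Hoxb3 at 0.27 (SE 0.10), and a median of 0.14. The Hox median was 0.28 without 0 h replicate 1, with 5 members higher, and without 22 h replicate 2 it was 0.26 with 2. For the 18 h libraries alone it was 0.23 with 2. Against the 2 h libraries alone it was 0.21 with 3, and against the 0 h libraries alone 0.05 with 0. It was 0.09 without 0 h replicate 3, 0.08 without 22 h replicate 1, 0.02 for the 22 h libraries alone, 0.07 with 0 higher without the 2 libraries highest in cerebellar genes, and 0.05 with the cerebellar covariate.

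**Figure D2:**
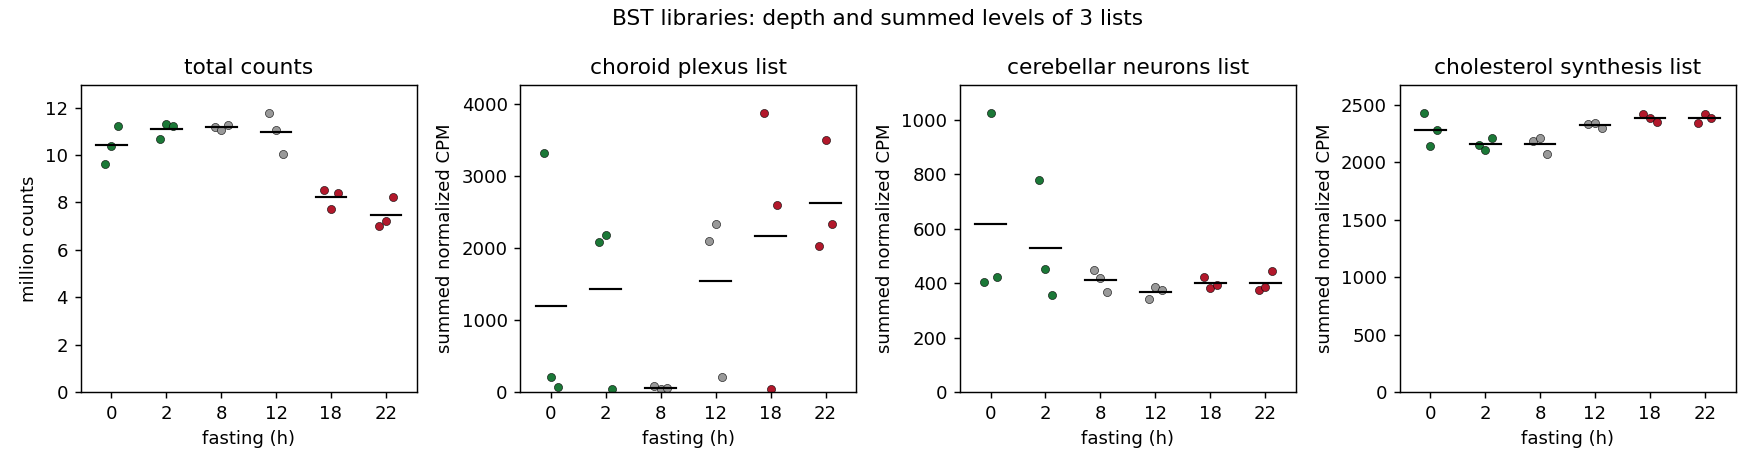
Total counts and the summed normalized CPM of the choroid plexus, cerebellar and cholesterol lists in each BST library against hours of fasting (linear axes from 0, a bar at the mean of 3 libraries; fed green, 8 h and 12 h grey, late red). Late libraries hold 6998492 to 8537933 counts, and the cerebellar sum reaches 1025 and 780 in 2 of the 6 fed libraries.

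Most chaperones of the cytosol and the endoplasmic reticulum had negative differences, none past the edgeR threshold in the main fit. Of 20 heat shock and cold-inducible genes, 1 was higher and 5 lower at an unadjusted p under 0.05, 18 had a negative difference, the median was -0.08, and 0 passed in edgeR. Chordc1, a partner of Hsp90, averaged 116.3 normalized CPM (SD 10.8) in fed and 93.9 (SD 8.78) in late libraries. The groups overlap at 1 end, and Chordc1 was lower by -0.31 (SE 0.06, adjusted p 0.0535 with edgeR, 0.00958 with DESeq2, the 1 call of that tool in the list). Hspa1b and Hspa1a, inducible Hsp70 genes that are near-identical copies and so uncertain one from the other, differed by -1.85 (SE 0.76) and -0.84 (SE 0.32). The co-chaperone Dnajb1 differed by -0.36 (SE 0.14) and the mitochondrial Hspe1 by -0.17 (SE 0.07). The 1 higher member was Cirbp, which is induced by mild cold, at 0.34 (SE 0.11), from a fed median of 56.9 to a late median of 75.5. The 5 lower members became 12 without 0 h replicate 2 and 14 without it and 2 h replicate 1, the libraries highest in cerebellar genes. With both out edgeR called 1 member higher and 1 lower and the list median was -0.15, and with the cerebellar covariate 14 were lower at that level, 1 higher and 2 lower were called and the median was again -0.15. It called 1 lower without 0 h replicate 1 or without 22 h replicate 2. Against the 2 h libraries alone it called 1 higher and 2 lower, with 7 lower at that level. For the 18 h libraries alone 5 were lower at that level and the median was -0.13. The 5 became 3 without 2 h replicate 2 or without 18 h replicate 2, 2 without 18 h replicate 1 or with the choroid covariate, and 1 against the 0 h libraries alone or for the 22 h libraries alone.

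The unfolded protein response had 0 higher and 7 lower of 18 tested, with a median of -0.12 and 0 called by either tool. Pdia6, a disulfide isomerase, ran from 82.7 through 96.1 to 118.3 in fed and from 76.9 through 80.2 to 85.6 in late libraries. Only the lowest fed values fall in the late range, and the difference was -0.29 (SE 0.08). Calr, a calcium-binding lectin chaperone, differed by -0.26 (SE 0.08), Hsp90b1 by -0.19 (SE 0.05), and Xbp1, the factor that drives much of the response, by -0.34 (SE 0.13). Sdf2l1 and Creld2, both induced by stress of the endoplasmic reticulum, differed by -0.54 (SE 0.23) and -0.36 (SE 0.15). Without 0 h replicate 2 and 2 h replicate 1 the list had 11 members lower at that level, 3 of them called, and a median of -0.20. Without 0 h replicate 2 alone it had 10, 1 of them called by edgeR, and a median of -0.17. With the cerebellar covariate it had 10 with 3 called, and against the 2 h libraries alone 9 with 2 called. Without 0 h replicate 3 it had 6 and a median of -0.07, and without 2 h replicate 2 it had 5 and a median of -0.08. The 8 h libraries did not lie between the groups: Calr averaged 317 there, beside 253 at 0 h and 221 at 22 h. Targets of ATF4, the arm that answers amino acid shortage, had 2 higher and 0 lower of 17: Slc7a5, the large amino acid carrier, at 0.26 (SE 0.08), and Sesn2 at 0.29 (SE 0.09). Autophagy and lysosome genes had 1 higher and 0 lower of 22, the 1 being Map1lc3b, the LC3 protein of autophagosomes, at 0.10 (SE 0.04). The 1 became 3 without 0 h replicate 1, with a list median of 0.05 in place of 0.02, and 3 without 18 h replicate 2. It became 0 without 2 h replicate 3, 18 h replicate 3, 22 h replicate 1 or 22 h replicate 3.

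Of 23 interferon-stimulated genes tested, 22 had a positive difference, 5 were higher and 0 lower at an unadjusted p under 0.05, with a median of 0.30 and 0 called by either tool. Ifi44 ran from 0.348 through 0.737 to 1.16 normalized CPM in fed and from 0.708 through 1.63 to 3.00 in late libraries. It lies near the floor, with overlap, and its difference was 1.24 (SE 0.34). Rtp4 differed by 0.78 (SE 0.23), Ifi27 by 0.24 (SE 0.08) and Gbp3 by 0.30 (SE 0.14). One mouse stood out, since the list sum was 401 in 18 h replicate 3, 260 in the next highest library and 205 to 244 in the fed ones. Without 18 h replicate 3 the list median was 0.08, with 3 members higher at that level, and for the 22 h libraries alone against fed it was 0.04 with 1, beside 0.59 with 14 for the 18 h libraries alone. The 5 became 9 without 22 h replicate 3, 8 without 22 h replicate 2, and 3 without 0 h replicate 2, 2 h replicate 1, 2 h replicate 3 or 18 h replicate 2. In this list edgeR called 1 member higher without 0 h replicate 1. Antigen presentation had 2 higher and 0 lower of 13 and a median of 0.09, namely Tap1, the peptide transporter, at 0.48 (SE 0.21), and Tapbp, which docks it to class I molecules, at 0.25 (SE 0.07). The antigen presentation median was 0.03 without 18 h replicate 3, 0.14 without 18 h replicate 2 and 0.17 without 0 h replicate 1, with 1 member called, or without 22 h replicate 2.

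Of 32 splicing regulators tested, 23 had a negative difference, 2 were higher and 9 lower at an unadjusted p under 0.05, with a median of -0.05 and 0 called by either tool. Tra2a, an activator of exon inclusion, ran from 60.5 through 71.5 to 82.8 in fed and from 47.2 through 58.6 to 67.8 in late libraries. Its ranges overlap in part, and the difference was -0.29 (SE 0.09). The kinases of splicing factors Clk1 and Clk4 differed by -0.22 (SE 0.09) and -0.16 (SE 0.07), Srsf3 by -0.20 (SE 0.05) and the helicase Ddx17 by -0.13 (SE 0.04). The splicing median was -0.03 without 2 h replicate 3 or without 18 h replicate 3, and edgeR called 2 members lower without 0 h replicate 1. Srrm2, of the spliceosome, was among the 2 higher members, at 0.13 (SE 0.06). Hnrnph1, a close relative of Hnrnph3 outside that list and named after its value was seen, differed by -0.16 (SE 0.04). Nuclear noncoding RNAs had 1 higher and 3 lower of 11: Meg3 at 0.48 (SE 0.17), Neat1, the scaffold of paraspeckles, at -0.40 (SE 0.15), Gas5 at -0.16 (SE 0.06) and Rian at -0.19 (SE 0.09). Their median, 0.06 with all 12 libraries, was -0.03 without 0 h replicate 2, 0.000977 without 22 h replicate 2, 0.10 without 18 h replicate 3, -0.06 with the cerebellar covariate and -0.05 without both libraries highest in cerebellar genes. Transcripts of the mitochondrial genome had 0 higher and 1 lower of 12 and a median of -0.03, which was -0.10 without 0 h replicate 1 and 0.01 without 0 h replicate 3 or without 2 h replicate 3. The 1 was mt-Atp6, at -0.71 (SE 0.28), which overlaps mt-Atp8 so that its count is uncertain, and mt-Atp8 was at 0 in all 12 libraries. The mitochondrial ribosomal RNAs mt-Rnr1 and mt-Rnr2, outside the list and named after their values were seen, differed by -0.29 (SE 0.08, adjusted p 0.197 with edgeR, 0.0408 with DESeq2) and -0.31 (SE 0.09, 0.276 and 0.0496). Both were called by edgeR without 0 h replicate 1, mt-Rnr1 at -0.35 and mt-Rnr2 at -0.39.

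**Figure D3:**
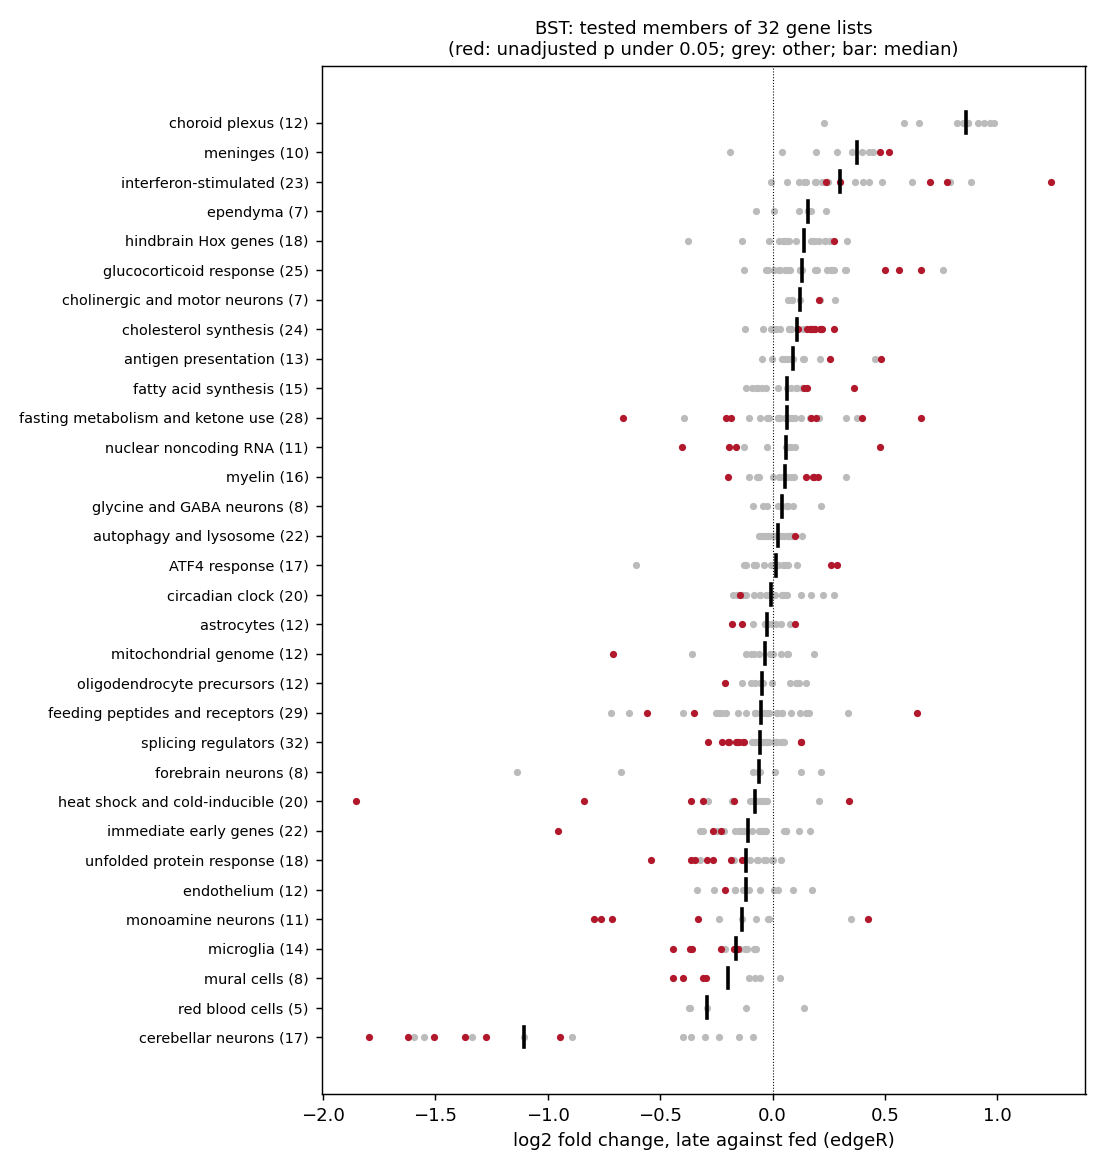
Log2 difference, late minus fed, of each member tested in the 32 gene lists (a point each, red at an unadjusted p under 0.05 and grey otherwise), with a black bar at the median of the list. Cerebellar genes lie lowest at -1.11 and choroid plexus genes highest at 0.86.

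The times pooled within each group were also compared with each other. Between 2 h and 0 h, edgeR called 1 of 16128 genes (0.0062%), with 575 (3.57%) at an unadjusted p under 0.05 and 12 called by DESeq2. It was Adipor2, a receptor for adiponectin with ceramidase activity, named after its value was seen, with 182.1, 186.2 and 153.1 normalized CPM at 0 h and 239.2, 256.9 and 287.1 at 2 h. The values at 2 h were all above those at 0 h, by a log2 difference of 0.59 (SE 0.08, adjusted p 0.0229). Its late libraries ran from 174.2 to 269.8, across both fed times. Without 0 h replicates 1, 2 or 3 the count became 2, 6 or 3, without 2 h replicate 1 it became 5, and without 2 h replicate 3 it became 0. Between 22 h and 18 h, edgeR called 0 of 15461 genes (0%), with 805 (5.21%) at an unadjusted p under 0.05, 0 called by DESeq2 and a smallest adjusted p of 0.131. Without 18 h replicate 1, 18 h replicate 3 or 22 h replicate 2 it called 3 each, and without 22 h replicate 1 it called 2.

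To see where BST differed from other brain regions of the same 12 mice, its late minus fed difference was tested against that of cerebellum within animals. Libraries of the same time and replicate number were taken as the same mouse, which the labels do not state. No gene passed: edgeR called 0 of 16842 (0%), with 1854 (11.0%) at an unadjusted p under 0.05, and DESeq2 called 40. Adgrl4, an adhesion receptor of endothelium, had the smallest p. It ran from 21.5 to 29.2 normalized CPM in fed and 18.9 to 23.9 in late BST, and from 8.504 to 17.4 in fed and 13.9 to 27.5 in late cerebellum. Lower in the one region and higher in the other, its change in BST minus that in cerebellum was -1.02 (SE 0.16, adjusted p 0.0638). Ptprb, the phosphatase of vessel walls, gave -0.63 (SE 0.12), Ptprz1, a phosphatase of glia, -0.39 (SE 0.07), and the glutamate transporter Slc1a2 -0.35 (SE 0.07), each at an adjusted p of 0.071. Slc1a2 differed by -0.03 (SE 0.04) in BST. A negative value can come from a fall in BST, a rise in cerebellum or both. In cerebellum by itself, late against fed, edgeR called 41 genes higher and 51 lower of 15875. Casq2, a calcium store protein, gave -0.82 (SE 0.15), with a BST difference of -0.75 (SE 0.17). Without single animals the count became 41 (0 h replicate 1), 34 (18 h replicate 2), 16 (18 h replicate 1), 3 (2 h replicate 1) and 2 (2 h replicate 3).

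Against the olfactory bulb of those mice edgeR called 0 of 17388 genes (0%), with 2027 (11.7%) at an unadjusted p under 0.05, and DESeq2 called 38. In the bulb by itself, late against fed, edgeR called 8 genes higher and 25 lower of 16402. The sequencing lane follows the groups in the bulb, so lane and fasting cannot be told apart there. Vwf, a clotting protein of endothelium, ran from 11.7 to 19.1 normalized CPM in fed and 12.8 to 22.3 in late BST, and from 5.73 to 13.0 and 3.78 to 6.92 in the bulb. Its change in BST minus that in the bulb was 1.01 (SE 0.16, adjusted p 0.0671). The collagen Col24a1 gave 0.82 (SE 0.15) at an adjusted p of 0.0783. Tpt1 gave -0.54 (SE 0.10), lower in late BST and at 27.2 to 35.8 in fed and 30.2 to 38.8 in late bulb. Gpx6, a glutathione peroxidase of olfactory tissue that was also among the smallest p, was too low in BST to test there, at 0.179 to 1.12 in its 12 libraries, so no difference of it is given. Without single animals the count became 2 (0 h replicate 1), 4 (0 h replicate 3), 1 (18 h replicate 2) and 2 (22 h replicate 2).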

How the data were processed

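RNA sequencing counts of whole brainstem were used, 12 libraries in the comparison and all 18 BST libraries for levels. The authors aligned reads with TopHat2 2.1.1 to GRCm38.p5 and deposited raw read counts per gene from HTSeq 0.9.1 (uniquely mapped reads, exons). Of 53686 rows, genes with at least 1.10 CPM, or 10 counts in a library of median size, in at least 3 of the 12 libraries were tested. edgeR 4.0.16 (TMM, robust quasi-likelihood, Benjamini-Hochberg over all genes tested) in R 4.3.3 gave differences and adjusted p at 0.05. Each SE is the size of the log2 difference divided by the square root of the F statistic of that test. It therefore restates the test and is not a separate measure of spread. Levels are CPM with TMM factors of the 18 libraries. Alternatives were DESeq2 1.42.0, other size factors, other filters, an exon-length correction, subsets of times, a replicate block, leaving out each library and added marker covariates. The rule for naming took the 5 genes with the smallest p per direction, 5 per interaction, and in each list the 2 most abundant, the most different and, added after values were seen, members at an unadjusted p under 0.05. Some genes it took are counted and not named, among them members differing by less than their SE, apart from Ttr and interaction genes. Members and lists were chosen with earlier results of these data known. Scripts were tested on simulated data.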

Additional observations from a re-analysis of the deposited data

Results flagged for a closer look

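In each group of 6 libraries, the gap between an extreme library and its nearest neighbour was divided by the range of the group, and values past Dixon's critical value are given. Of 414 groups examined, 28 had such a library. Chance gives about 1 in 20 groups, or 21. Of the 28, 12 were in 0 h replicate 1. That library was highest for Slc4a2 (0.641), Chpf2 (0.706), Cldn11 (0.773), Cnp (0.751), Olig1 (0.643), Ifi27l2a (0.852) and H2-D1 (0.781), for the Hox sum (0.719) and for the autophagy and lysosome sum (0.871), and lowest for Bdnf (0.678), mt-Rnr1 (0.706) and mt-Rnr2 (0.718). In 0 h replicate 2, Pomc was highest (0.771) and Hsp90aa1 lowest (0.659). In 0 h replicate 3, Myh11 was highest (0.641) and Per1 (0.685) and Slc7a5 (0.657) lowest, and in 2 h replicate 1 Csf1r was lowest (0.733).

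Among late libraries, 22 h replicate 2 was highest for Tph2 (0.677), Pdia3 (0.711) and Col24a1 (0.635) and lowest for Mvk (0.672). The library 18 h replicate 1 was highest for Ddx17 (0.648), Casq2 (0.734) and Hnrnph1 (0.654). Dbh was highest in 18 h replicate 2 (0.664), and Rtp4 (0.637) and the interferon sum (0.777) in 18 h replicate 3.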

How the results depend on the processing

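Of 4497 differences of 174 genes under the alternatives, 6 had the other sign than reported. These were Slc1a2, 0.000414 against 0 h alone and 0.002045 for 18 h alone, Hsp90aa1, 0.01103, and Vwf, -0.03417, for 22 h alone, Ttr, -0.07237, with the choroid covariate, and Hbb-bs, 0.02378, without the 2 libraries high in cerebellar markers. Counts higher and lower, 0 and 0 as reported, became 18 and 31 with DESeq2, 50 and, rounded, 1.2e+02 with no filter on low counts, 2 and 11 with all 18 libraries in the fit, 32 and 48 against 2 h alone, 0 and 1 for 22 h alone, 0 and 7 with the exon-length trend taken out, 0 and 4 with the choroid covariate, 2 and 8 with the cerebellar covariate and 2 and 8 without both libraries high in cerebellar markers. Leaving out 1 library gave 0 to 48 higher and 0 to 73 lower. They were 0 and 0 with other size factors, a stricter filter, 18 h alone and 0 h alone. For 2 h against 0 h the 1 gene became 12 with DESeq2, 33 with no filter and 0 to 6 without 1 library. For 22 h against 18 h, 0 became 15 with no filter and 0 to 3 without 1 library. For BST minus cerebellum, 0 became 40 with DESeq2, 534 with no filter and 0 to 41 without 1 animal, and for BST minus bulb 38, 441, 2 with no term for the animal and 0 to 4. The cause was not tested.

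Replicate numbers did not pair libraries across times: over 18 pairs of the same number, r of the residual levels ran from -0.239 to 0.327 with a mean of 0.00891, across genes that are not independent. With the replicate number as a block, 0 genes were higher and 0 lower, the 2 h against 0 h count was 0 and that of 22 h against 18 h was 1.

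Depth of 6998492 counts in the shallowest library puts 3 counts at 0.429 CPM, so genes near that level rest on few counts. With 6 mice a group, 1 tissue mixture per mouse and sheet order following fasting time, small differences in cell types, dissection and handling are not separable.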
